A study of Homo sapiens with 6 samples.

Results

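This account concerns 10 nuclear genes for the chaperones and quality-control proteases of mitochondria, in HaCaT cells warmed daily to 41 °C. HaCaT is an immortalised line of human keratinocytes, the main cells of the epidermis. The genes were listed by symbol, with earlier results of these data known but with no threshold on their values: the chaperonin genes HSPD1 and HSPE1, the HSP90-type chaperone TRAP1, the co-chaperones GRPEL1 and DNAJA3, the matrix proteases LONP1, CLPP and CLPX, and the proteases YME1L1 and HTRA2. All 10 symbols were among the 15379 in the count table, and all 10 passed the filter on low counts, as did 12056 genes in all. One group of 3 libraries came from cells held at 37 °C for 1 h per day on 3 days, and the other group of 3 from cells given 41 °C for the same time. The cells of both groups were of 1 line, with no genetic change named. Nothing in the labels says that replicates came from separate cultures, so the spread behind each p-value is that between these libraries and may be technical. The labels also do not give the delay between the last exposure and RNA isolation.

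Most mitochondrial proteins are made in the cytosol and are imported unfolded, so they must be folded on arrival. Mitochondrial HSP70, with its nucleotide exchange factor GRPEL1, pulls them in and folds them, and the J-domain protein DNAJA3 helps it in folding. The barrel-shaped chaperonin HSP60 (HSPD1) with its lid HSP10 (HSPE1) encloses a further set of these proteins. Proteins that fail to fold are degraded in the matrix by LONP1 and by ClpXP, a complex of the unfoldase CLPX and the peptidase CLPP, and at the inner membrane or in the intermembrane space by YME1L1 and HTRA2. Transcripts of several of these genes are known to rise when unfolded protein accumulates in mitochondria, and HSPD1 and HSPE1 are also known targets of the heat shock factor HSF1.

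HSPD1 and HSPE1 lie head to head on chromosome 2, which makes their shared promoter the natural place to start. In RefSeq on GRCh38.p14 the first HSPD1 start lies at position 197500274 on the minus strand and the HSPE1 start at 197500379 on the plus strand, a distance of 105 bases. The 104 bases between the starts (chr2:197500275-197500378) are shown because they belong to both genes, written on the strand of HSPE1 with an E-box (CACGTG, its own reverse complement) in capitals. RefSeq also gives HSPD1 a second start, at 197499840, and a 30-base stretch upstream of it (chr2:197500061-197500090, strand of HSPD1) is shown because it holds an 18-base run of alternating heat shock element units, in capitals. That run begins 245 bases before the second start and lies within GENCODE 29 exons of both genes, 294 bases upstream of the RefSeq start of HSPE1. For comparison, 150 bases upstream of the start of HSPA1A (chr6:31815393-31815542, plus strand), the inducible cytosolic HSP70 gene, are given with 1 pair of such units in capitals. The stretches just upstream of TRAP1 (chr16:3717525-3717624, minus strand) and LONP1 (chr19:5720147-5720216, minus strand) are added for their exact cAMP response element (TGACGTCA) and E-box, in capitals.
HSPD1 to HSPE1: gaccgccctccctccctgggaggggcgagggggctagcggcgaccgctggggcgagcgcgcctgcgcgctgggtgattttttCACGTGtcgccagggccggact
HSPD1 second start: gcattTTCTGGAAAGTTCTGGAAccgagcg
HSPA1A: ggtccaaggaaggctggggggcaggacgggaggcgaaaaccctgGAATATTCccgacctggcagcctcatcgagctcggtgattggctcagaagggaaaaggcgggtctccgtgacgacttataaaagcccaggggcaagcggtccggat
TRAP1: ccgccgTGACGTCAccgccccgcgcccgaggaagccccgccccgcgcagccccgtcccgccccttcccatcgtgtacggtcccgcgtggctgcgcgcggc
LONP1: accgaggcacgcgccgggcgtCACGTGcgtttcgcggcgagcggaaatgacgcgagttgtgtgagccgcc

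RefSeq windows of 300 bases, 250 before and 50 after a start, were matched for 7 of the 10 genes and gave 10 windows; GRPEL1, CLPP and YME1L1 had none. Motifs were searched by exact letters on both strands. A heat shock element of 3 units (GAANNTTC followed directly by NNGAA) occurred in 1 of the 10 windows, that of the second HSPD1 start, and in 0.490% of all 35116 windows. Its 2-unit parts, GAANNTTC and TTCNNGAA, which overlap it, occurred in that same 1 window and in 6.77% and 7.74% of all windows. The E-box occurred in 3 of the 10 (HSPD1 first start, HSPE1 and LONP1; the HSPD1 and HSPE1 windows share 204 bases and the same E-box) and in 7.26% of all. The cAMP response element occurred in 1, that of TRAP1, and in 1.85% of all, and the amino acid response element TTGCATCA in 0 and 0.866%. A match of letters is a description of the sequence and not evidence of binding.

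By deposited values HSPD1 was by far the highest of the 10 genes, and the order of the mean levels was the same at both temperatures. The place of HSPE1 in that order is uncertain, since the treatment of reads matching its pseudogenes or overlapping genes is not stated. On the scale of deposited FPKM, which divides counts by gene length and library total, HSPD1 had 333.2 ± 24.1 at 37 °C and 342.8 ± 17.7 at 41 °C (SD, n = 3), a level above 98.7% of tested genes. TRAP1 followed with 94.7 ± 2.21 and 100.5 ± 2.56 FPKM. The others lay between 10.004 and 40.4 FPKM on average, CLPX being the lowest at both temperatures with 10.8 ± 0.706 and 10.004 ± 0.104 FPKM. At 37 °C every neighbouring pair in the order was separated by the ranges of its 3 libraries except LONP1 and HSPE1. At 41 °C the ranges overlapped for YME1L1 and DNAJA3 and for HSPE1 and GRPEL1. Together the 10 genes took 0.156 to 0.170% of the counts of a library, and HSPD1 alone took 47.6 to 50.9% of that share.

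**Figure D1:**
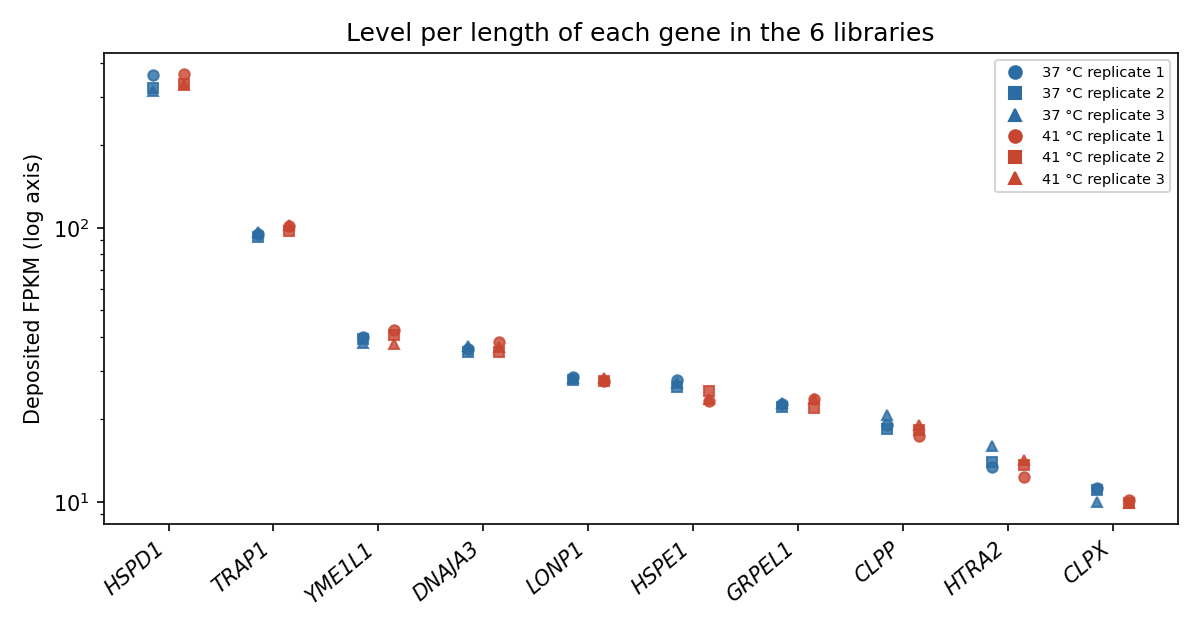
Deposited FPKM (log axis) of each of the 10 genes in the 3 libraries at 37 °C (blue) and the 3 at 41 °C (red), one point per library. HSPD1 lies above all others at both temperatures, TRAP1 comes next, and the colours lie close together for each gene.

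After daily warming, none of the 10 transcripts passed the threshold of the test. In edgeR's quasi-likelihood test at a Benjamini-Hochberg adjusted p under 0.05, 0 of 10 were higher and 0 lower, against 1.09% of all tested genes called (0.821% higher and 0.265% lower). At an unadjusted p under 0.05 there was 1, TRAP1, against 13.7% of all tested genes. Limma-voom also called 0 of the 10. DESeq2 called 0 too, but gave no adjusted p for HSPE1, GRPEL1, CLPP, CLPX and HTRA2. Log2 changes from 37 to 41 °C ran from -0.15 to 0.10 with a median of 0.02, beside a median of 0.0023 over all tested genes. Of the 10 changes 6 were above 0 and 4 below, and 50.9% of all tested genes were above 0. The 95% intervals of the fold reached no lower than 0.789 and no higher than 1.15, and 8 of the 10 lay wholly between 0.833 and 1.2. These intervals rest on the spread between these libraries, which may be technical. The genes that did pass over the whole table had modest changes as well, with a median fold of 1.2 among the higher and 0.803 among the lower ones. In simulated data for this comparison, run on the 12056 genes, the test recovered 40% of genes raised 1.2-fold and 82% of those raised 1.5-fold. The only decrease simulated, to 0.5-fold, was recovered in 87.8%, against 98% for a 2-fold increase. Smaller decreases were not simulated. The changed genes were drawn at random, and the simulated libraries had no trends on gene length or GC content. Recovery in the real libraries, which have such trends, may differ.

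**Figure D2:**
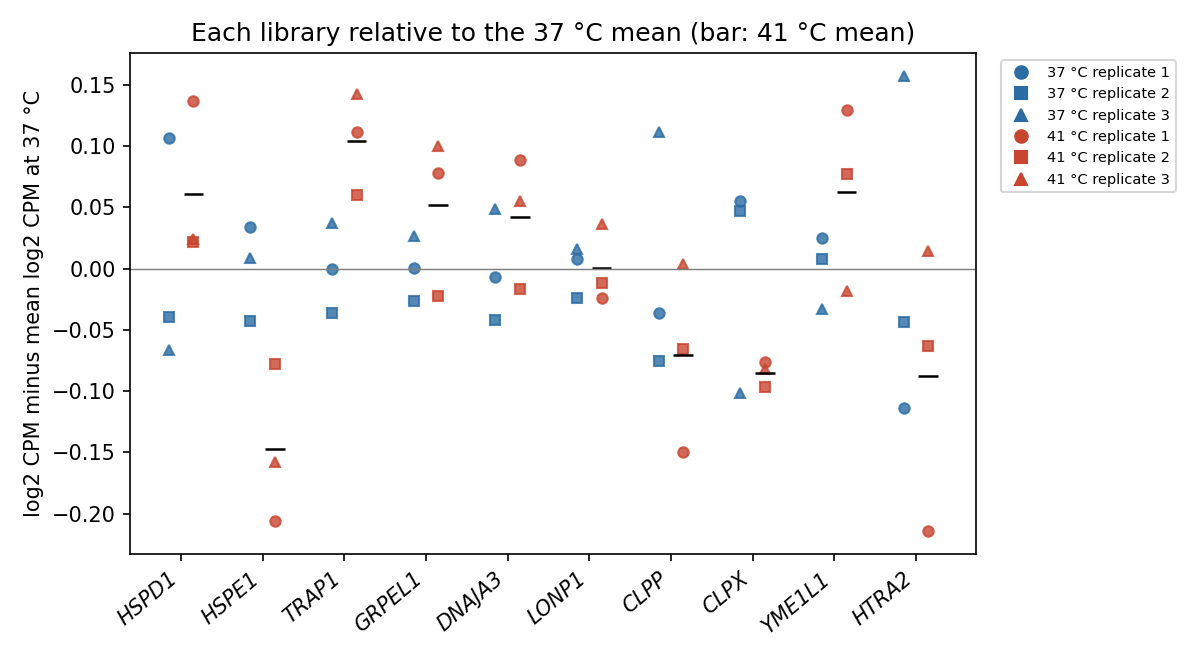
Log2 CPM (the count relative to the TMM-scaled library total) of each library minus the mean of the 37 °C libraries, one point per library, with a bar at the 41 °C mean. Only HSPE1 (lower) and TRAP1 (higher) have 41 °C libraries that do not overlap the 37 °C ones, and the means at 41 °C lie between -0.15 and 0.10.

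The positions that follow are those of GENCODE 29 on GRCh38, where all 10 genes are protein-coding. Among the chaperonin genes, HSPD1 (chr2:197486581-197516737, minus strand) had 840.0, 758.9 and 744.9 CPM at 37 °C and 857.8, 791.9 and 793.1 CPM at 41 °C. Replicate 1 was the highest of both groups, and the groups overlapped. The change was a log2 of 0.06 ± 0.05 (SE; edgeR adjusted p = 0.662), with a 95% interval of the fold from 0.967 to 1.12. It ran from 0.02 without 41 °C replicate 1 to 0.11 without 37 °C replicate 1. The counting error of this gene at 37 °C was 0.804%, and its libraries at 37 °C varied by 6.57%. GENCODE 29 names 17 pseudogenes after HSPD1 and 26 after HSPE1, none of which had a row here, and the labels do not say how reads matching more than 1 copy were treated. Both values are uncertain to that extent.

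HSPE1 (chr2:197499994-197503457, plus strand) gave far fewer reads: 306, 288 and 298 were counted at 37 °C, compared with 271, 293 and 267 at 41 °C. Scaled for depth these were 15.4, 14.6 and 15.1 CPM against 13.01, 14.2 and 13.4 CPM, so every library at 41 °C lay below every library at 37 °C. The same separation of groups in either direction was seen in 2 of the 10 genes and in 20.0% of all tested genes. The log2 change of -0.15 ± 0.09 did not pass (SE; edgeR adjusted p = 0.519; fold interval 0.789 to 1.03), and counting error alone was 5.80% at 37 °C. HSPE1 also has the shortest deposited length of the 10, 557 bases. Across all tested genes the log2 change followed gene length with a Spearman rho of 0.25 (n = 12056 genes, which share the libraries). By library, the deviation from the gene mean had a rho with length of -0.42 in 37 °C replicate 3, against -0.04 to 0.22 in the others. When each library's trend on length was removed, the log2 change of HSPE1 was -0.02 and that of HSPD1 0.08.

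In each library the level of HSPE1 per length was far below that of HSPD1. The FPKM ratio was 0.0775, 0.0813 and 0.0859 at 37 °C and 0.0642, 0.0761 and 0.0718 at 41 °C. All ratios at 41 °C were below those at 37 °C. The mean log2 ratio differed by -0.21, and the exact two-sided permutation test over libraries gave p = 0.1, the smallest p that 3 libraries against 3 allow. With each library's trend on length removed, an alternative chosen after the data had been seen, the groups overlapped and the difference was -0.11 (exact two-sided permutation p = 0.3). In RefSeq the readthrough locus HSPE1-MOB4 starts at the same base as HSPE1; in GENCODE 29, 9.71% of the exon bases of HSPE1 are shared with it on the same strand and 14.2% with HSPD1 on the opposite strand. For MOB4, the other gene of that locus, 3, 3 and 2 reads were counted at 37 °C, compared with 1, 0 and 1 at 41 °C. The part of these overlaps and of the pseudogenes in the low level of HSPE1 was not tested.

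**Figure D3:**
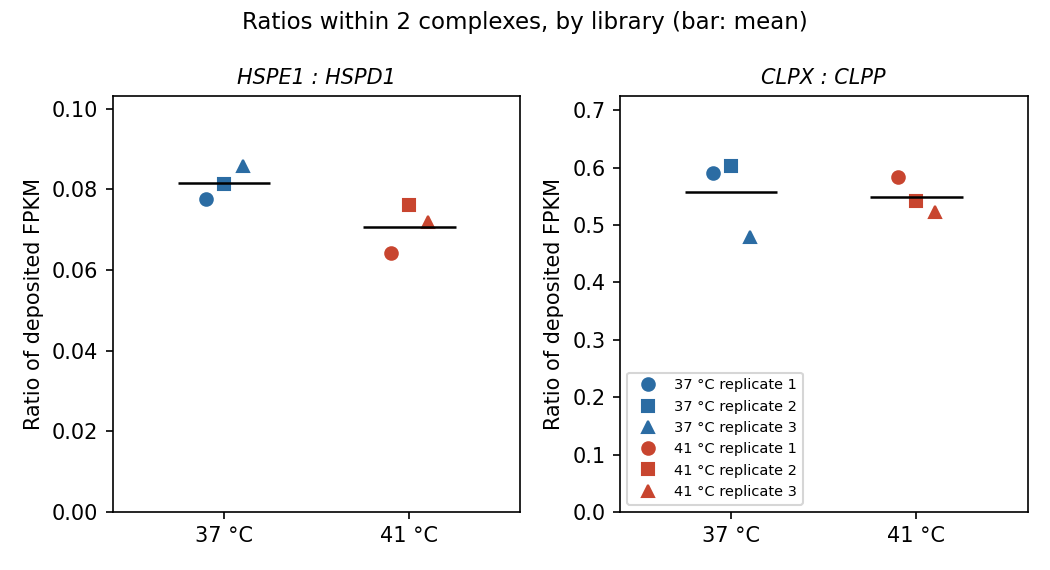
Ratio of deposited FPKM of HSPE1 to HSPD1 (left) and of CLPX to CLPP (right) in each library, with bars at the group means. The left ratios at 41 °C (0.0642 to 0.0761) all lie below those at 37 °C (0.0775 to 0.0859), while the right ones overlap.

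TRAP1 (chr16:3651639-3717597, minus strand) encodes the mitochondrial member of the HSP90 family, an ATP-driven chaperone of the matrix. It had 215.1, 209.9 and 220.8 CPM at 37 °C and 232.5, 224.3 and 237.5 CPM at 41 °C. Each library at 41 °C lay above each at 37 °C, and TRAP1 had the smallest p of the 10. The log2 change was 0.10 ± 0.04, a fold of 1.08 with an interval of 1.01 to 1.15, and it did not pass over all genes (edgeR adjusted p = 0.302). Across all alternatives run the adjusted p ran no lower than 0.0761, reached without 37 °C replicate 3, and the log2 change stayed between 0.08 and 0.13. In GENCODE 29, 29.3% of the exon bases of TRAP1 overlap DNASE1 on the opposite strand, and whether the counting used strand is not stated in the labels.

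The co-chaperone genes GRPEL1 and DNAJA3 varied as much within a temperature as between them. GRPEL1 (chr4:7058906-7068197, minus strand), the exchange factor that releases ADP from mitochondrial HSP70, had 59.8, 58.7 and 60.9 CPM at 37 °C and 63.2, 58.9 and 64.1 CPM at 41 °C, with replicate 2 the lowest of both groups. Its log2 change was 0.05 ± 0.06 (SE; edgeR adjusted p = 0.751; fold interval 0.953 to 1.13). DNAJA3 (chr16:4425805-4456775, plus strand) stimulates the ATPase of mitochondrial HSP70, and had 96.6, 94.3 and 100.4 CPM against 103.2, 95.9 and 100.8 CPM. Its groups overlapped too, with a log2 change of 0.04 ± 0.05 (SE; edgeR adjusted p = 0.787; fold interval 0.953 to 1.11). HSPA9, the mitochondrial HSP70 gene that both serve and which was singled out after its values were seen, had 541.8 ± 9.35 CPM at 37 °C and 558.0 ± 6.33 at 41 °C (SD, n = 3; 0.04 ± 0.04 on the log2 scale, edgeR adjusted p = 0.701).

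LONP1 (chr19:5691834-5720572, minus strand) encodes the Lon protease, a ring of identical subunits that unfolds and degrades damaged matrix proteins. It differed least of the 10 between the temperatures, with 97.0, 94.9 and 97.6 CPM at 37 °C and 94.9, 95.6 and 98.9 CPM at 41 °C. The log2 change was 0.00024 ± 0.05, with a fold interval from 0.929 to 1.08 (edgeR adjusted p = 0.999).

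The ClpXP genes were slightly lower at 41 °C on average without passing, and 1 library at 37 °C set much of their spread. CLPP (chr19:6361452-6368910, plus strand), the peptidase chamber, had 45.3, 44.1 and 50.1 CPM at 37 °C and 41.9, 44.4 and 46.5 CPM at 41 °C (log2 change -0.07 ± 0.07; edgeR adjusted p = 0.713; fold interval 0.859 to 1.05). CLPX (chr15:65148219-65185342, minus strand), the unfoldase that feeds it, had 52.5, 52.2 and 47.1 CPM against 47.9, 47.2 and 47.7 CPM (-0.09 ± 0.06; edgeR adjusted p = 0.593; fold interval 0.858 to 1.03). In 37 °C replicate 3 CLPP was at its highest of the 6 libraries and CLPX at its lowest. Without that library the log2 change of CLPP was -0.01 and that of CLPX -0.13, and neither passed; over all 6 left-out libraries the changes ran from -0.11 to -0.01 for CLPP and from -0.13 to -0.07 for CLPX. The FPKM ratio of CLPX to CLPP was 0.591, 0.603 and 0.478 at 37 °C and 0.584, 0.543 and 0.523 at 41 °C. Those groups overlapped, with a log2 difference of -0.01 (exact two-sided permutation p = 0.9); without 37 °C replicate 3 it was -0.12.

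At the inner membrane and in the intermembrane space, the protease genes also did not pass. YME1L1 (chr10:27110112-27155266, minus strand), the AAA protease whose active site faces the intermembrane space and which cleaves the fusion factor OPA1, had 198.8, 196.5 and 191.0 CPM at 37 °C and 213.7, 206.1 and 192.9 CPM at 41 °C. Replicate 3 at 41 °C fell within the 37 °C range, and the log2 change was 0.06 ± 0.05 (SE; edgeR adjusted p = 0.602; fold interval 0.975 to 1.12). HTRA2 (chr2:74529377-74533348, plus strand), a serine protease that can also bind inhibitors of apoptosis once released, had 31.0, 32.5 and 37.4 CPM at 37 °C and 28.9, 32.1 and 33.8 CPM at 41 °C. This gene was the most variable of the 10 at 37 °C (9.93%, against a counting error of 3.87%), and its groups overlapped, with a log2 change of -0.09 ± 0.08 (SE; edgeR adjusted p = 0.705; fold interval 0.830 to 1.06). The log2 change was -0.0063 without 37 °C replicate 3, where HTRA2 was highest, and -0.03 without 41 °C replicate 1, where it was lowest, against -0.15 without 37 °C replicate 1 and -0.14 without 41 °C replicate 3. Exons of AUP1 and LOXL3 on the opposite strand cover 36.9% of the GENCODE 29 exon bases of HTRA2, so its reads may not all be its own.

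The libraries differed in their trend on base composition, which ran opposite ways in replicates of 1 group. Across 11812 tested genes the deviation of a library from the gene mean had a Spearman rho with GC content of -0.46 in 37 °C replicate 1 and 0.45 in 37 °C replicate 3, and between -0.17 and 0.21 in the other 4 libraries. Of the 5 genes with a GC content above 50%, CLPP (62.1%) and HTRA2 (56.9%) were highest in 37 °C replicate 3, whereas LONP1 (62.3%) and TRAP1 (57.3%) were highest in 41 °C replicate 3 and DNAJA3 (53.4%) in 41 °C replicate 1. Of the 5 with a lower GC content, CLPX (42.0%), YME1L1 (42.1%) and HSPD1 (45.0%) were lowest in 37 °C replicate 3, whereas HSPE1 (46.6%) was lowest in 41 °C replicate 1 and GRPEL1 (48.2%) in 37 °C replicate 2. The part of base composition in single values was not tested; with each library's GC trend removed, an alternative chosen after the data had been seen, the log2 changes of CLPP, HTRA2 and CLPX were -0.06, -0.09 and -0.08.

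Cytosolic heat shock genes were the nearest comparison, since they are the textbook readout of heat. Of 12 such genes, all tested, 2 rose and 0 fell, against 0.821% higher and 0.265% lower among all tested genes. All 12 had a log2 change above 0, against 50.9% of all tested genes, with a median of 0.16 beside 0.02 for the mitochondrial genes. HSPA1A, the inducible HSP70 gene, had 150.4 ± 3.78 CPM at 37 °C and rose to 185.4 ± 8.64 (SD, n = 3; a log2 change of 0.30 ± 0.05 with an edgeR adjusted p = 0.00498), and HSPA8, the constitutive one, rose by a log2 of 0.21 ± 0.05 (edgeR adjusted p = 0.0364). HSPA1B, nearly identical to HSPA1A in sequence, differed by a log2 of 0.17 ± 0.05 without passing (edgeR adjusted p = 0.108), and their separate values are uncertain. The 2 calls became 0 without 37 °C replicate 2 or 41 °C replicate 2, 1 without 41 °C replicate 1 or 3, and 4 and 6 without 37 °C replicates 1 and 3; 11 of the 12 were above 0 without 37 °C replicate 3 or 41 °C replicate 1. There were 7 calls with the replicate block, 6 with the block and the length correction, 5 with the GC correction, 3 with the length correction, DESeq2 or no filter, 1 with upper-quartile factors or log2(FPKM + 0.1), and 0 with log2(FPKM + 1). HSPA1A and HSPA1B, 2 of the 12 genes, were compared with HSPD1 in a test chosen after the values had been seen. It used the FPKM ratio of HSPA1A plus HSPA1B to HSPD1, and its exact permutation p cannot fall below 0.1. This ratio was 0.345, 0.375 and 0.404 at 37 °C and 0.393, 0.425 and 0.452 at 41 °C. The groups overlapped and the mean log2 ratio differed by 0.18 (exact two-sided permutation p = 0.2); with the GC trends removed they did not overlap, with a difference of 0.18 (exact two-sided permutation p = 0.1). The 8 subunits of TRiC, the cytosolic counterpart of the HSP60 chaperonin, had 0 calls and a median log2 change of 0.01 (below 0 with upper-quartile factors, on either FPKM scale, or without 37 °C replicate 2 or 41 °C replicate 1); CCT3, CCT7 and TCP1 had the smallest p, with log2 changes of 0.09, 0.07 and 0.05.

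**Figure D4:**
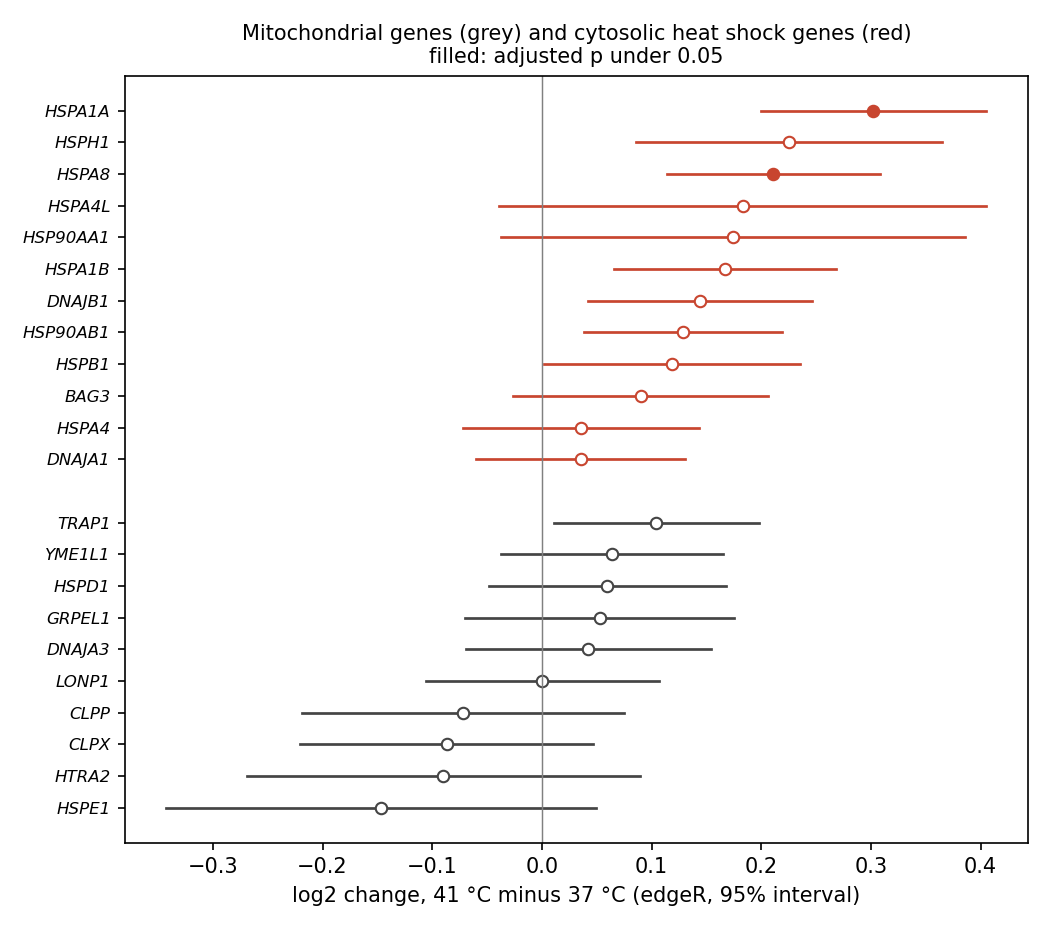
Log2 change from 37 to 41 °C with its 95% interval (edgeR) for the 10 mitochondrial genes (grey) and 12 cytosolic heat shock genes (red), with filled points where the adjusted p was under 0.05. HSPA1A and HSPA8 are filled, and 9 of the 10 mitochondrial intervals include 0.

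The wider protein quality-control machinery of mitochondria likewise held no gene past the threshold, against 1.09% of all tested genes called. With lists this short, 0 calls do not set them apart from other genes. Among 12 tested genes of the HSP70 system and other chaperones 0 passed, with a median log2 change of -0.07. The smallest p-values were those of HSCB, an iron-sulfur cluster co-chaperone (-0.22 ± 0.09), BCS1L, an assembly factor of respiratory complex III (-0.14 ± 0.07), and DNAJC11 (0.09 ± 0.06), with edgeR adjusted p of 0.323, 0.345 and 0.524. Among 17 other proteases and prohibitins 0 passed, with a median of -0.02. PITRM1, which degrades cleaved targeting peptides, had a log2 change of 0.15 ± 0.05, PMPCB, a subunit of the peptidase that removes those peptides, -0.12 ± 0.05, and the inner-membrane peptidase gene IMMP1L -0.23 ± 0.11 (edgeR adjusted p = 0.226, 0.346 and 0.376). Without 37 °C replicate 3 there was 1 call in this list, PITRM1, at a log2 change of 0.19 (edgeR adjusted p = 0.0138), and the median was 0.0025. Over all tested genes 805 were called without that library, 483 higher and 322 lower.

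Import channels, signalling genes and protease substrates also gave 0 calls with all 6 libraries, against 1.09% of all tested genes. Of 21 genes of the import machinery 0 passed, with a median of -0.03 and 6 above 0, which turned to 0.02 and 14 above 0 with the length correction; TOMM7, CHCHD4 and TIMM9 differed by -0.14, 0.17 and -0.13 on the log2 scale (edgeR adjusted p = 0.298, 0.372 and 0.473). Of 13 tested genes of mitochondrial stress signalling 0 passed, with a median of -0.05. DDIT3, which encodes the stress factor CHOP, had 21.7 ± 1.62 CPM at 37 °C and 18.1 ± 1.24 at 41 °C (SD, n = 3; -0.26 ± 0.09 on the log2 scale, edgeR adjusted p = 0.190), ATF5, a transcription factor linked to the mitochondrial unfolded protein response, differed by -0.15 ± 0.08, and the kinase gene EIF2AK1 by 0.07 ± 0.04 (edgeR adjusted p = 0.408 and 0.528). Among 16 tested substrates and partners of the proteases 0 passed, with a median of 0.02 (-0.0050 with upper-quartile factors, and just below 0 on either FPKM scale). Without 37 °C replicate 3, where 805 of all tested genes were called, there was 1 call in this list, the apoptosis inhibitor gene BIRC3. Its log2 change of -0.14 (edgeR adjusted p = 0.664) became -0.28 (edgeR adjusted p = 0.0187). TWNK, the helicase of mitochondrial DNA, NDUFA13, a subunit of respiratory complex I, and ALAS1, the haem synthesis enzyme regulated by CLPX and LONP1, differed by 0.22, -0.14 and 0.11 on the log2 scale (edgeR adjusted p = 0.247, 0.268 and 0.392). Of 12 tested markers of mitochondrial content 0 passed either, with a median of -0.05, and CS, COX4I1 and VDAC1 differed by 0.10, -0.10 and 0.08 (edgeR adjusted p = 0.306, 0.349 and 0.435). Over these 6 lists 10 entries had an unadjusted p under 0.05, of 91 tested, against 13.7% of all tested genes.

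**Figure D5:**
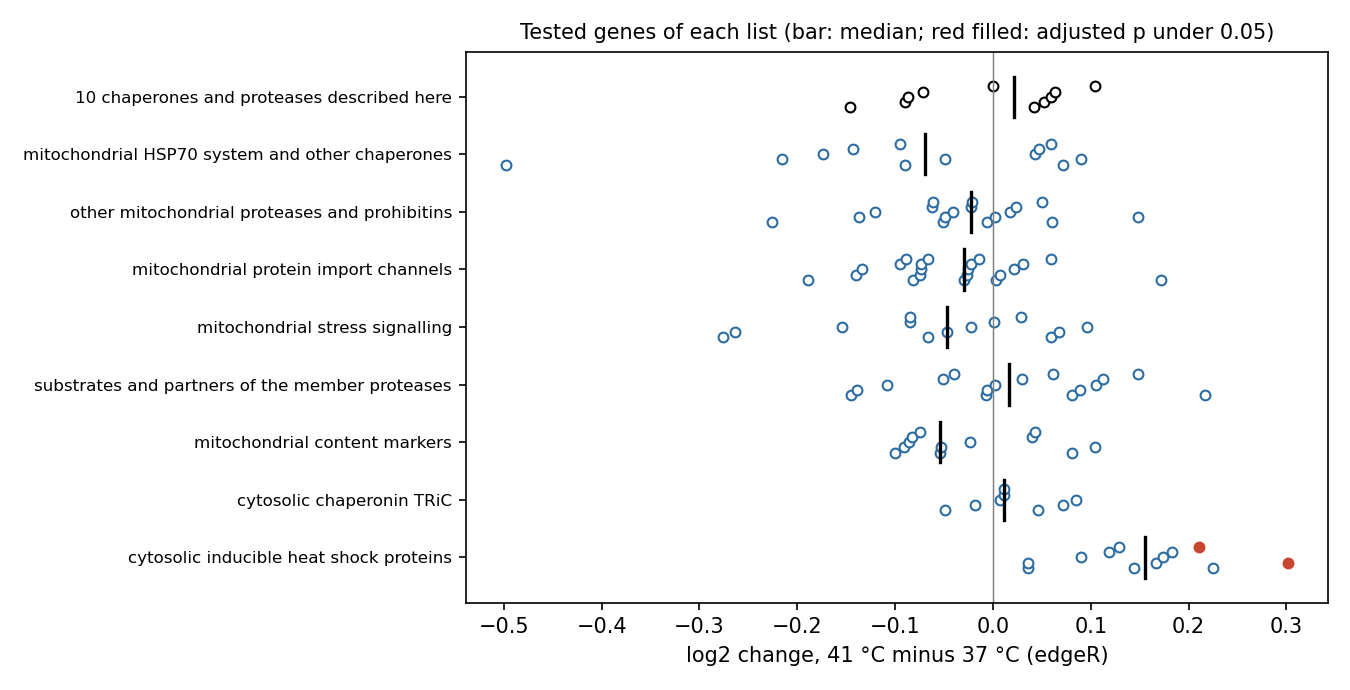
Log2 change from 37 to 41 °C (edgeR) of every tested gene in each list, with a bar at the list's median and red filled points where the adjusted p was under 0.05. Only the cytosolic heat shock list holds filled points, and the medians of the mitochondrial lists lie between -0.07 and 0.02.

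Library totals ran from 19659112 to 20856144 counts. All 10 keratinocyte markers checked were present, with a summed level of 6320 to 6809 CPM at 37 °C and 7204 to 7625 at 41 °C. Of these 10, 5 passed the threshold as higher at 41 °C, against 0.821% of all tested genes. The summed level of 4 melanocyte markers was 4.93 to 5.09 and 5.02 to 6.18 CPM, of 5 fibroblast markers 14.0 to 16.7 and 15.6 to 17.9 CPM, of 4 immune markers 0.661 to 1.16 and 0.338 to 0.844 CPM, and of 3 endothelial markers 21.0 to 30.4 and 18.6 to 22.4 CPM. Their part in the results above was not tested.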

How the data were processed

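Poly(A) RNA of 6 libraries was sequenced. Reads were trimmed with Trimmomatic 0.36 and aligned with HISAT2 to GRCh38.p13, per the submitters' processing notes; for the counter, its annotation and its use of strand the notes and labels name nothing. The deposited count table holds raw whole-number counts per gene symbol. The deposited FPKM values were made by the authors from the same counts and carry 1 length per gene. Counts were filtered (filterByExpr), scaled by TMM and tested with edgeR 4.0.16 in R 4.3.3 (robust quasi-likelihood, two-sided, 12056 genes, Benjamini-Hochberg, threshold 0.05). SE and 95% intervals come from that fit. Alternatives used DESeq2 1.42.0, limma 3.58.1 (voom, or log2 of FPKM plus 1 or 0.1), other scalings and filters, library trends on length or GC content (splines with 4 degrees of freedom), a replicate block and each library left out. The procedure was tested on simulated data without library trends, with 15 false calls among 168. Gene models are GENCODE 29 and promoters are RefSeq on GRCh38.p14. Overlap shares are of all GENCODE 29 exon bases of a gene, which differ from its deposited length. These were 3001 and 2343 bases for HTRA2, 5227 and 2287 for TRAP1, and 1977 and 557 for HSPE1. The 10 genes and the lists were chosen by symbol, with earlier results of these data known; beyond the 10, the 3 genes of each list with the smallest p are named.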

Additional observations from a re-analysis of the deposited data

How the results depend on the processing

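Under each of 18 alternatives 0 of the 10 genes passed the threshold, and their median log2 change ran from 0.0011 to 0.03. DESeq2 gave no adjusted p for 5 of the 10. The direction held in all 18 for 9 genes. LONP1, at 0.00024, turned in 10: -0.0021 with DESeq2 and -0.0021 with its size factors in edgeR, -0.00086 with the CPM filter, -6.43e-05 with limma-voom, -0.0199 with upper-quartile factors, -0.018 with either FPKM pseudocount, and between -0.018 and 0.012 with libraries left out. The log2 difference of the HSPE1 to HSPD1 ratio kept its sign (-0.26 to -0.14 with libraries left out, -0.11 with the length correction), and that of CLPX to CLPP ran from -0.12 to 0.047 with libraries left out. Among the 6 other mitochondrial lists, calls appeared under 1 of the 18 alternatives: PITRM1 and BIRC3 without 37 °C replicate 3, which gave 805 calls over all tested genes. The cause was not tested.

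The 131 genes called over the whole table became 217 with DESeq2, 284 with no filter, 40 and 11 with log2(FPKM + 0.1) and log2(FPKM + 1), 456 with the GC correction chosen after the data had been seen, and 5 to 805 with libraries left out (5 without 41 °C replicate 2, 805 without 37 °C replicate 3). With upper-quartile scaling 57 were higher and 53 lower, against 99 and 32. The replicate block gave 438 calls, and 250 with the length correction, with 0 of the 10 genes among them. Same-numbered libraries deviated together by correlations of 0.08, -0.02 and 0.08, and 4 of 6 libraries correlated best with their own number. The main test did not take the numbers as pairs, and whether same-numbered libraries share a batch was not tested. HSPE1 had the fewest counts of the 10 genes, about 300 per library, and the reason was not tested.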
